A study of Mus musculus with 9 samples.

Results

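The genes described here are the DNA replication and repair genes of BV2 cells, an immortalized mouse microglial line, before and after bacterial lipopolysaccharide (LPS). They are the genes of the deposited table whose pathway annotation holds at least 1 of 4 terms, DNA replication, Mismatch repair, Homologous recombination and Fanconi anemia pathway, and whose mean level over all libraries is at least 1 FPKM (sequenced fragments scaled to transcript length and library size). The rule found 55 genes among the 6462 of the table, of which 5643 reach that level. DNA replication is the term of 29 of them, Mismatch repair of 15, Homologous recombination of 14 and the Fanconi anemia pathway of 20; 40 genes hold 1 of these terms and 3 hold all 4. The groups were untreated cells (0 h) and cells that had received 200 ng/ml LPS for 1 h or 12 h, with 3 libraries in each group and 9 in all. All groups are the same cell line, and the labels name no genetic change. Untreated cells matched to the later times are not among the groups, and the effects of LPS and of time therefore cannot be told apart. Whether the 3 libraries of each group are separate cultures is not stated, so p-values measure the spread between these libraries only.

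Before a cell copies its genome, origin recognition proteins load the MCM2 to MCM7 ring onto DNA, and the ring becomes the motor of the replicative helicase. DNA polymerases α, δ and ε then copy the strands with the help of the PCNA clamp, its loader RFC and the single-strand binding protein RPA. Mismatch repair corrects copying errors, homologous recombination rejoins broken strands by using a sister copy, and the Fanconi anemia pathway clears cross-links between strands. Most of these genes are transcribed more in proliferating cells, and BV2 cells proliferate in culture, unlike most resting microglia.

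The table lists genes that had been selected for a difference among these same libraries: its flag is 1 in all 6462 rows and its highest q-value is 0.0999. The listed FPKM summed to 195872 to 198075 per untreated library, 203515 to 205413 per 1 h library and 223720 to 228207 per 12 h library. The read depth is not given. Low FPKM values were divided by those of untreated library 1, and the densest cluster of ratios within a preset range around 1 was taken. It put the other libraries at 1.08 to 1.17 times the depth of untreated library 1, an estimate from 5 to 20 genes per library. With so few genes and a preset range, this estimate is rough. Of 12 microglial marker genes, 9 were in the table, and 6 of these reached a mean of 1 FPKM. Among the 6 were Tyrobp (560 ± 30.5 FPKM at 0 h, mean ± SD, n = 3, as throughout), Csf1r (66.1 ± 2.76) and Cx3cr1 (6.27 ± 0.407). The markers below that mean were P2ry12, a marker of resting microglia (1.24 ± 0.336 at 0 h), Fcrls (0.922 ± 0.069) and C1qa (0.628 ± 0.156). Of 17 markers of other brain cells and fibroblasts only Olig2 was listed, at 0 in 8 of 9 libraries. A gene at an even level in all libraries would be missing too, so absence from this table does not show absence of expression.

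At 12 h, the replication and repair genes had moved down nearly as a group. Of the 55 genes, 50 were lower than at 0 h and 2 were higher (limma, adjusted p under 0.05), where 40.6% of all tested genes were lower and 41.1% higher. Their median difference in log2(FPKM + 1), the scale of all differences below, was -0.39, against 0.03 over all tested genes. The changes were moderate: 14 genes fell by at least 0.5 and none of the 55 fell by 1 or more. The share of all tested genes that fell by at least 0.5 was not counted. Summed over the 55 genes, the level was 1756 to 1775 FPKM in untreated libraries, 1763 to 1817 after 1 h and 1394 to 1470 after 12 h. As a share of the listed FPKM this was 0.889% to 0.902%, 0.866% to 0.888% and 0.611% to 0.657%, so the 12 h libraries lay below all others. In bulk RNA, fewer replicating cells and less of these transcripts per cell cannot be told apart.

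At 1 h little of this was seen. Of the 55 genes, 16 were lower and 7 higher than at 0 h, where 34.9% of all tested genes were lower and 24.1% higher, and the median difference was -0.03 against -0.03 over all tested genes. Between 1 h and 12 h, 49 were lower and 2 higher at 12 h, where 43.6% and 41.9% of all tested genes were, with a median of -0.35. The most common course, in 30 genes, was no call at 1 h and a lower call at 12 h against both 0 h and 1 h. A further 12 genes were lower at 1 h and lower again at 12 h. The share of all tested genes with each course was not counted, so these counts describe the 55 genes only. The 12 h comparisons with 0 h and with 1 h share the 12 h libraries, so their counts are not independent. The 1 h counts were less firm: the count of 7 was 4 without untreated library 1, 3 without untreated library 3, 2 without 1 h library 1 and 3 without 1 h library 2, and the count of 16 was 9 without 1 h library 2. Under quantile normalization Pold1, Rfc2, Rfc5, Rnaseh2a, Rnaseh2c, Rpa1 and Topbp1, all among those 30 genes, were also called lower at 1 h (-0.09 to -0.14). Faap100, Fancm, Polk and Rad51d lost their lower call there, so which genes fell early depends on the scaling.

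**Figure D1:**
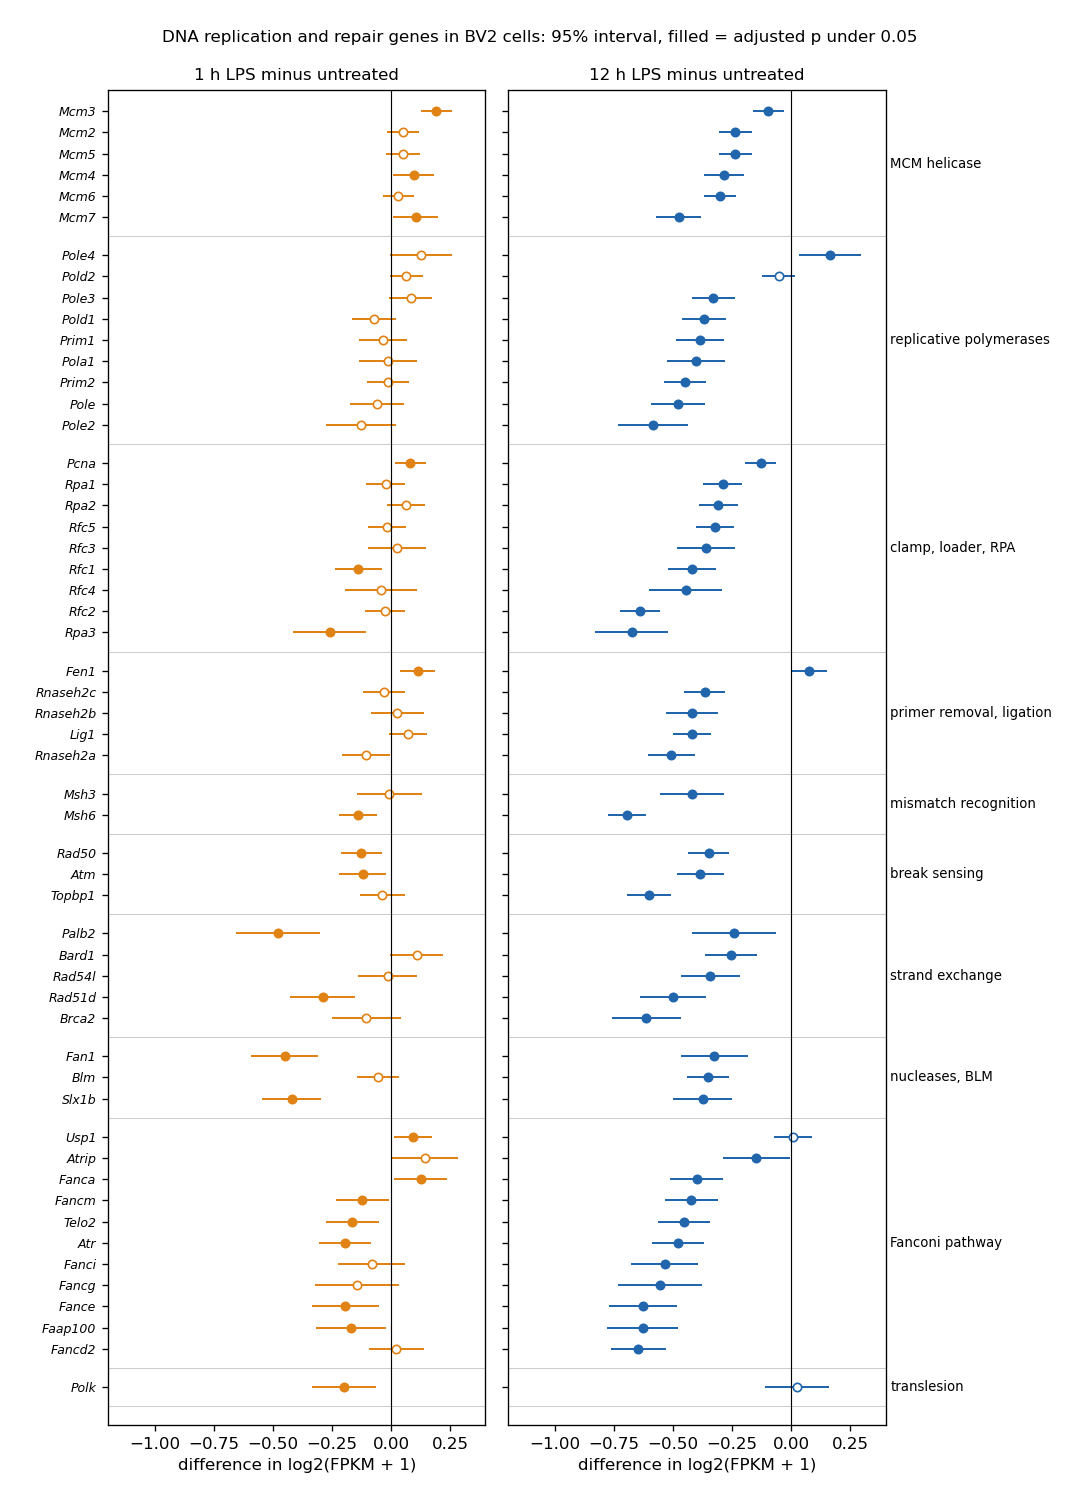
Difference from untreated cells in log2(FPKM + 1) for 54 of the 55 genes (rows, grouped by role) at 1 h (left) and 12 h (right), with 95% intervals from limma; filled points have an adjusted p under 0.05. At 1 h the genes lie on both sides of 0, and at 12 h most lie below it; of all 55, 50 are lower and 2 higher.

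Promoter sequence was looked at because these genes moved together at 12 h and many are textbook targets of E2F factors, which turn on S phase genes. RefSeq windows on GRCm38.p6, from 250 bases before to 50 bases after the annotated start of transcription, were at hand for 45 of the 55 genes. The E2F letters searched were TTTGGCGC, TTTCCCGC, TTTGCCGC and TTTCGCGC on both strands; matches on opposite strands can overlap. Such a match was in the windows of 16 of the 45 genes (35.6%), against 4.95% of 4421 other tested genes with a window, 6.52% of the 1764 of those that were lower at 12 h, and 2.6% of 27025 genes of the promoter table. The CHR letters of mitotic genes, TTTGAA and TTCGAA, were in 20% of the 45. The shares were 16.6% in the other tested genes, 18.8% in those lower at 12 h and 21.7% in the promoter table. CCAAT, the NF-Y letters, was in 57.8% of the 45, and in 43.3%, 44.4% and 41.1% of those sets in the same order. A match is a description of the letters and not a binding site. The stretches below, upstream of the start and read 5′ to 3′ in the direction of the gene, show the E2F matches in capitals in helicase genes, in the catalytic subunit of polymerase α, in Brca2, and in Pole4, which did not fall. They lie at chr8:75109336-75109395 (Mcm5, plus strand), chr1:128359735-128359835 (Mcm6, minus), chr5:138172009-138172068 (Mcm7, minus), chrX:93632254-93632313 (Pola1, minus), chr5:150522433-150522492 (Brca2, plus) and chr6:82652875-82652934 (Pole4, minus).
Mcm5: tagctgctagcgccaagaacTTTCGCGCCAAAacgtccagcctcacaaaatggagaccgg
Mcm6: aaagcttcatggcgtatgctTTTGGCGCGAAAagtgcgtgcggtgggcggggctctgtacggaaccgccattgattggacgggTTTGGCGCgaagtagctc
Mcm7: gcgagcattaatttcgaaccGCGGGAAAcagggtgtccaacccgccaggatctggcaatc
Pola1: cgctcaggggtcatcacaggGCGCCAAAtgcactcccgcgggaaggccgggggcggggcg
Brca2: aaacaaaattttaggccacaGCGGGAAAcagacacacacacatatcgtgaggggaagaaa
Pole4: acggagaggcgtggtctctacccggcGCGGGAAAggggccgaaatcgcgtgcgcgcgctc

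The capitals in Mcm5 hold 2 overlapping matches, one on each strand, and those in Mcm6 hold such a pair and 1 more match nearer the start. The genes with and without a match did not stand apart in their late difference: the 16 with one had a median of -0.41 (range -0.70 to 0.16) and 15 of them were lower at 12 h, and the 29 with a window and no match had a median of -0.37 (range -0.68 to 0.08) and 26 were lower.

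All 6 genes of the MCM ring were lower at 12 h, with a median of -0.26. Mcm7 had the largest difference: it stood at 57.8, 50.9 and 53.6 FPKM at 0 h, 58.2, 57 and 59.2 at 1 h and 38.1, 40.1 and 37.4 at 12 h. The 12 h libraries lay below all others, and Mcm7 fell by 0.48 (SE 0.042, adjusted p = 9.05e-08). Mcm6 stood at 82.2, 82.5 and 82.8 FPKM at 0 h, 84.7, 86 and 82.3 at 1 h and 68.1, 67.2 and 64.9 at 12 h. It fell by 0.30 at 12 h (adjusted p = 2.19e-07), and its 0 h and 1 h libraries overlapped. Mcm3 took a different course, with 88, 86.7 and 85.5 FPKM at 0 h, 100.1, 100.9 and 96.6 at 1 h and 81.4, 82.6 and 79.3 at 12 h. The 3 groups of Mcm3 did not overlap: it rose by 0.19 at 1 h (adjusted p = 6.32e-05) and was below the untreated level by 12 h (-0.10, adjusted p = 0.0066). The other members of the ring differed from 0 h by -0.29 (Mcm4), -0.24 (Mcm2) and -0.24 (Mcm5). At 1 h all 6 had positive differences, from 0.03 to 0.19, but Mcm3 alone kept its call there in every alternative tried.

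Loading of the ring needs origin recognition and licensing proteins, which hold none of the 4 terms and were counted from a separate list of origin firing and fork protection genes. Of 23 tested genes of that list, 11 (47.8%) were lower and 9 (39.1%) higher at 12 h, shares near the 40.6% and 41.1% of all tested genes, with a median of 0.03. The genes of this list named next were picked after their values were seen. Orc2, a subunit of the origin recognition complex, rose from 35.9 ± 1.77 FPKM at 0 h to 52 ± 1.79 at 12 h (0.52), and Orc1, Cdc6 and Cdc45 had differences of 0.39, 0.18 and 0.16 with calls. Mcm8, a relative of the ring proteins that works in recombination, fell by 0.57. Mcm9, another gene of the list, rose by 0.45, from 2.2 ± 0.111 FPKM at 0 h to 3.35 ± 0.105 at 12 h. The GINS genes Gins4 (-0.56), Gins3 (-0.44) and Gins1 (-0.32), whose products join the ring in the active helicase, fell.

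Among 9 genes for the replicative polymerases, 7 were lower at 12 h, 1 higher and 1 not called. Pole2, the second subunit of polymerase ε, stood at 9.37, 9.15 and 8.64 FPKM at 0 h, 8.2, 8.72 and 7.71 at 1 h and 5.17, 6.49 and 5.5 at 12 h. Its 12 h libraries lay below all others and it fell by 0.59 (adjusted p = 1.24e-06). Pole, which encodes the catalytic subunit, went from 11.5, 11.9 and 11.4 FPKM to 11.8, 10.9 and 10.6 at 1 h and 7.83, 8.67 and 7.66 at 12 h, a fall of 0.48 (adjusted p = 6.69e-07). The primase genes Prim2 (-0.45) and Prim1 (-0.39), which start each strand, and Pola1 (-0.40) fell alike. Pold1, the catalytic subunit of polymerase δ, fell by 0.37, whereas Pold2, its partner, went from 40.6 ± 0.468 to 39.1 ± 1.19 FPKM at 12 h, a difference of -0.05 (95% interval -0.12 to 0.01, adjusted p = 0.125). Without 12 h library 1 the difference of Pold2 was -0.08 (adjusted p = 0.0487), and under quantile normalization it was -0.16 (adjusted p = 0.000243). Pole3 and Pole4 encode a histone-fold pair at the edge of polymerase ε. Pole3 fell by 0.33, from 23.1 ± 0.564 to 18.2 ± 1.01 FPKM. Pole4 stood at 23.9, 26.6 and 23.5 FPKM at 0 h, 26, 29.6 and 25.5 at 1 h and 25.9, 29 and 28.2 at 12 h. The groups of Pole4 overlapped, and its call at 12 h (0.16, adjusted p = 0.02) was lost without untreated library 1 (0.14, adjusted p = 0.0624) or 3 (0.13, adjusted p = 0.0847), without 12 h library 2 (0.13, adjusted p = 0.0789) or 3 (0.15, adjusted p = 0.0546), and under quantile normalization (0.09, adjusted p = 0.191).

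All 9 genes for the clamp, its loader and the RPA complex were lower at 12 h, over a wide range from -0.13 to -0.68. Rpa3, the small subunit of RPA, stood at 40.4, 44.1 and 39.9 FPKM at 0 h, 37.8, 33.3 and 32.4 at 1 h and 28, 22.6 and 26.3 at 12 h. The 3 groups did not overlap, and Rpa3 fell by 0.26 at 1 h (adjusted p = 0.00569) and by 0.68 at 12 h (adjusted p = 4.67e-07). Its partners Rpa1 (-0.29) and Rpa2 (-0.31) changed less. Rfc2, a small subunit of the clamp loader, stood at 50.4, 48.2 and 49 FPKM at 0 h, 49.7, 49.5 and 45.9 at 1 h and 30.1, 31.9 and 31.6 at 12 h. Its 0 h and 1 h libraries overlapped, and it fell by 0.64 at 12 h (adjusted p = 9.12e-10), more than Rfc4 (-0.45), Rfc1 (-0.42), Rfc3 (-0.36) and Rfc5 (-0.32). Pcna, the clamp itself and the most abundant of the 55 transcripts, went from 325 ± 8.51 FPKM at 0 h to 344 ± 7.82 at 1 h and 297 ± 7.37 at 12 h. It fell by 0.13 at 12 h (adjusted p = 0.000808), the smallest late fall of this role group.

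Of 5 genes for primer removal and ligation, 4 fell at 12 h. Lig1, the ligase that seals nicks between newly made pieces, stood at 25.3, 25.3 and 25.9 FPKM at 0 h, 26.7, 27.2 and 26.6 at 1 h and 19.2, 19.2 and 18 at 12 h, a fall of 0.42 (adjusted p = 5.1e-08). All subunits of ribonuclease H2, which removes RNA from DNA, fell: Rnaseh2a by 0.51, from 18.9, 17.7 and 19.2 FPKM to 13.5, 12.2 and 12.7, Rnaseh2b by 0.42 and Rnaseh2c by 0.37. Fen1, the flap nuclease that trims primers, did not fall. It stood at 51.3, 50.4 and 49.2 FPKM at 0 h, 54.9, 56.4 and 52.2 at 1 h and 53.4, 53.3 and 52.6 at 12 h, so the LPS libraries lay above the untreated ones. Its difference was 0.11 at 1 h (adjusted p = 0.00916; 0.09 and adjusted p = 0.0525 without 1 h library 2, and 0.04 and adjusted p = 0.299 under quantile normalization) and 0.08 at 12 h (adjusted p = 0.0428). The 12 h call of Fen1 was lost in 8 alternatives, and under quantile normalization its direction turned (-0.05, adjusted p = 0.165). Leaving out untreated library 2 gave adjusted p = 0.0755, untreated library 3 adjusted p = 0.146, and 12 h libraries 1, 2 and 3 adjusted p = 0.101, 0.0853 and 0.0546; without 1 h library 1 it was 0.0521.

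The 3 mismatch recognition genes were all lower at 12 h. Msh6, whose product recognizes single-base mismatches, stood at 37.8, 38.2 and 37.3 FPKM at 0 h, 35.4, 33.6 and 33.6 at 1 h and 22.3, 23.8 and 22.5 at 12 h. The 3 groups did not overlap, and Msh6 fell at both times, by 0.14 (adjusted p = 0.00398) and 0.70 (adjusted p = 1.97e-10). Msh3, whose product recognizes longer loops, was far less abundant, at 4.2 ± 0.254 FPKM at 0 h, and fell by 0.42 at 12 h.

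**Figure D2:**
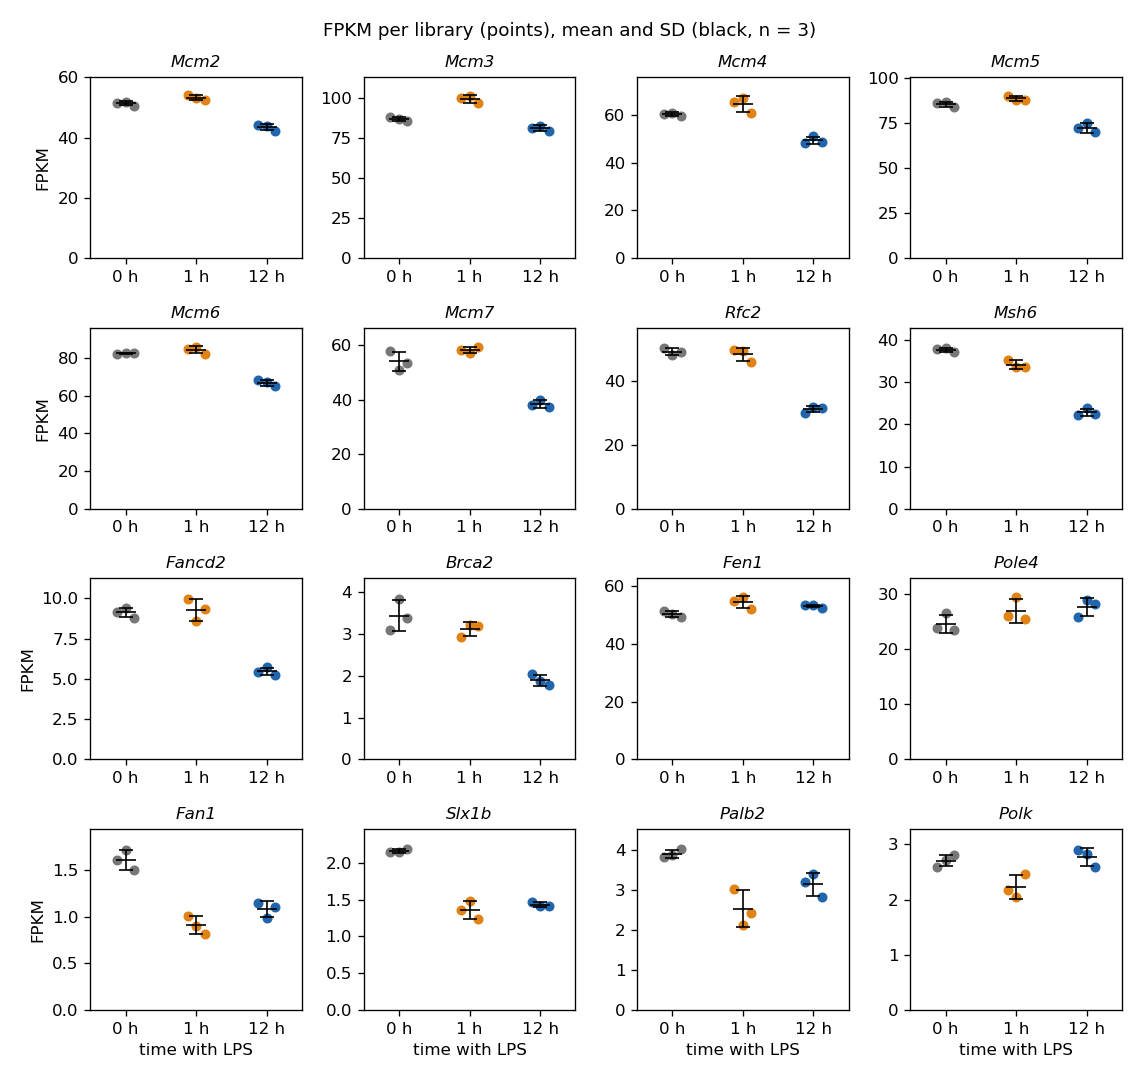
FPKM of 16 of the genes in each library (points) by time with LPS, with the group mean and SD in black; axes start at 0. The 12 h points of the MCM genes, Rfc2, Msh6, Fancd2 and Brca2 lie below all others, while those of Fan1, Slx1b, Palb2 and Polk are lowest or near lowest at 1 h.

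Genes that sense and process double-strand breaks were lower at 12 h in 3 of 3 cases. Topbp1, which activates the ATR checkpoint kinase at stalled forks, stood at 43.4, 46.3 and 43.6 FPKM at 0 h, 45, 43 and 41.9 at 1 h and 28.6, 30.6 and 27.7 at 12 h, a fall of 0.60 (adjusted p = 6.29e-09). Atm, the kinase that answers breaks, went from 13.2, 14.4 and 13.3 FPKM to 12.4, 12.2 and 12.9 at 1 h and 10.2, 10.5 and 9.87 at 12 h (-0.39, adjusted p = 1.44e-06). Rad50, part of the MRN complex that holds broken ends, went from 15.3, 16.4 and 15.7 FPKM to 14.5, 13.9 and 14.8 and then 12.1, 12.3 and 12.2 (-0.35, adjusted p = 9.74e-07). In Atm and Rad50 the 3 groups did not overlap.

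The strand exchange genes, 5 in number, all fell at 12 h. Brca2, a mediator of strand exchange, stood at 3.09, 3.83 and 3.38 FPKM at 0 h, 2.92, 3.22 and 3.19 at 1 h and 2.04, 1.87 and 1.77 at 12 h. Its 0 h and 1 h libraries overlapped, and it fell by 0.61 at 12 h (adjusted p = 7.26e-07). Rad51d, which assists strand exchange, went from 2.97, 3.06 and 3.31 FPKM to 2.19, 2.43 and 2.48 at 1 h and 2.04, 1.99 and 1.71 at 12 h (-0.50, adjusted p = 3.28e-06). Rad54l (-0.34), a motor protein of strand exchange, and Bard1 (-0.25), the partner of BRCA1, fell less. Palb2, which links BRCA1 to BRCA2, had its lowest level early. It stood at 3.81, 3.86 and 4.01 FPKM at 0 h, 3.03, 2.12 and 2.43 at 1 h and 3.2, 3.4 and 2.83 at 12 h, so the LPS groups overlapped each other but not the untreated group. It fell by 0.48 at 1 h (adjusted p = 0.000168). At 12 h its difference was -0.24 (adjusted p = 0.0127; -0.19 and adjusted p = 0.0612 without 12 h library 3, and -0.11 and adjusted p = 0.199 under quantile normalization). The step up from 1 h to 12 h, 0.24 (adjusted p = 0.0132), was 0.15 without 1 h library 2 (adjusted p = 0.081) and 0.19 without 12 h library 2 (adjusted p = 0.0577).

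Among the junction and cross-link nucleases, Fan1 and Slx1b resembled Palb2 in their early fall. Slx1b, a subunit of a nuclease that cuts branched DNA, stood at 2.14, 2.15 and 2.19 FPKM at 0 h, 1.37, 1.48 and 1.24 at 1 h and 1.47, 1.41 and 1.42 at 12 h. It fell by 0.42 at 1 h (adjusted p = 2.33e-05), and its 12 h level did not pass the test against 1 h (0.05, adjusted p = 0.457). Fan1, a nuclease of cross-link repair, stood at 1.61, 1.72 and 1.5 FPKM at 0 h, 1.01, 0.903 and 0.814 at 1 h and 1.15, 0.99 and 1.1 at 12 h. It fell by 0.45 at 1 h (adjusted p = 3.75e-05) and was still 0.33 lower at 12 h (-0.33, adjusted p = 0.000279), a call lost under quantile normalization (-0.10, adjusted p = 0.212). Its 12 h and 1 h levels differed by 0.13 (adjusted p = 0.0807), or 0.16 without 1 h library 1 (adjusted p = 0.0445). These transcripts are near the level filter, where a pseudocount of 1 shrinks differences. Blm, the helicase that takes crossed strands apart, followed the late course, from 11.2, 11.5 and 11.2 FPKM to 10.8, 10.7 and 11.1 and then 8.61, 8.89 and 8.4 (-0.35 at 12 h, adjusted p = 1.06e-06).

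Of 11 genes for the Fanconi core complex, its targets and its regulators, 10 were lower at 12 h, with a median of -0.48. Fancd2, which is ubiquitinated together with FANCI at cross-links, stood at 9.14, 9.43 and 8.81 FPKM at 0 h, 9.96, 8.6 and 9.32 at 1 h and 5.42, 5.72 and 5.25 at 12 h. It fell by 0.65 at 12 h (adjusted p = 3.81e-08), beside Fanci (-0.54). The core complex genes Faap100 (-0.63; 6.05, 5.83 and 6.17 FPKM at 0 h, 5.25, 5.28 and 5.18 at 1 h and 3.82, 3.86 and 2.97 at 12 h), Fance (-0.63), Fancg (-0.56), Fancm (-0.42) and Fanca (-0.40) fell with it. Atr, the checkpoint kinase of stalled forks, fell at both times, from 9.51, 10.4 and 9.81 FPKM to 8.65, 8.26 and 8.68 at 1 h (-0.20, adjusted p = 0.00341) and 6.77, 7.23 and 6.49 at 12 h (-0.48, adjusted p = 3.83e-07). Telo2, which stabilizes ATM and ATR, did likewise (-0.16 and -0.46). Atrip, the partner of ATR, was near the threshold at 12 h (-0.15, adjusted p = 0.0449). That call was lost without untreated library 1 (adjusted p = 0.0791) or 3 (-0.12, adjusted p = 0.143) and without 12 h library 1 (adjusted p = 0.0662) or 3 (-0.09, adjusted p = 0.206). It was also lost without a level filter (adjusted p = 0.0688) and under quantile normalization (-0.07, adjusted p = 0.34). Usp1, the enzyme that removes ubiquitin from FANCD2, stood at 47.9 ± 2.08 FPKM at 0 h, 51.1 ± 0.573 at 1 h and 48.2 ± 1.36 at 12 h. Its 12 h difference was 0.01 (95% interval -0.07 to 0.08, adjusted p = 0.833), but quantile normalization gave -0.12 (adjusted p = 0.0114), so its direction depends on the scaling. Polk, the 1 translesion polymerase among the 55, stood at 2.59, 2.72 and 2.8 FPKM at 0 h, 2.18, 2.04 and 2.46 at 1 h and 2.89, 2.83 and 2.59 at 12 h. Its 1 h libraries were the lowest (-0.20, adjusted p = 0.0115; -0.16 and adjusted p = 0.0577 without 1 h library 2, and -0.05 and adjusted p = 0.534 under quantile normalization), and its 12 h difference was 0.02 (adjusted p = 0.721; 0.17 and adjusted p = 0.0217 under quantile normalization).

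Partner genes therefore did not always keep their ratio. In 7 pairs, picked after the values were seen, the log2 ratio of FPKM in each library was compared between 12 h and 0 h. The ratio of Pole4 to Pole3 was 0.01, 0.24 and 0.03 at 0 h and 0.51, 0.60 and 0.72 at 12 h. The ratio of Fen1 to Lig1 went from 1.02, 0.99 and 0.92 to 1.48, 1.47 and 1.55, and that of Usp1 to Fancd2 from 2.32, 2.40 and 2.45 to 3.19, 3.08 and 3.16. The ratio of Rpa3 to Rpa1 changed by -0.40, that of Mcm7 to Mcm3 by -0.39, that of Rfc2 to Rfc1 by -0.22 and that of Pold2 to Pold1 by 0.33. In all 7 pairs the 0 h and 12 h ratios did not overlap, and each had a two-sided exact permutation p of 0.1, the smallest that 3 against 3 libraries allow, and 0.1 again after adjustment over the 7. These pairs were chosen for their difference, so the values are a description.

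**Figure D3:**
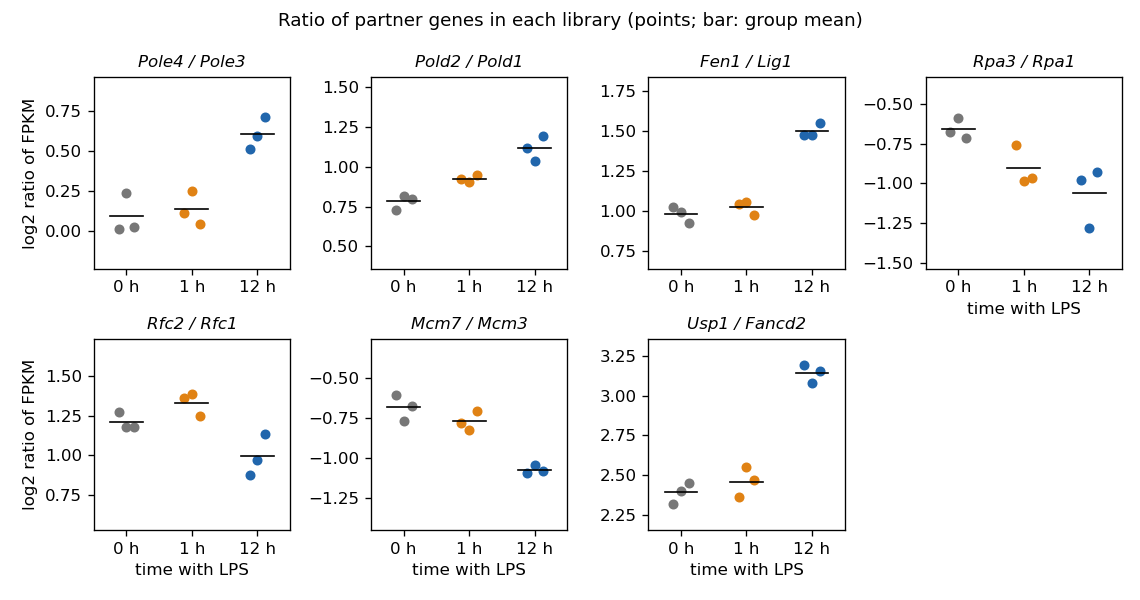
Log2 ratio of the FPKM of 7 pairs of partner genes in each library (points; bar, group mean) by time with LPS; every panel spans the same range of log2 units. In all 7 pairs the 12 h ratios lie apart from the 0 h ratios, upward for Pole4 to Pole3, Pold2 to Pold1, Fen1 to Lig1 and Usp1 to Fancd2.

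Across the 55 genes the early difference followed the level more than the late one did: Spearman's rho of mean log2 FPKM with the difference was 0.55 at 1 h and 0.31 at 12 h (Pearson's r 0.61 and 0.24). This is a description across genes that share all libraries, and low levels also carry more counting noise and more shrinkage by the pseudocount.

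Other gene groups of replication and repair were counted from lists. Over all tested genes, 40.6% were lower and 41.1% higher at 12 h. Of 24 tested mitosis genes, 23 were lower at 12 h, with a median of -0.49, led by Cenpf (-1.04) and Nusap1 (-1.02). For deoxynucleotide supply 6 of 8 were lower and 2 higher (median -0.25), with Tk1, the S phase thymidine kinase, at -0.74 and Dut, which removes dUTP, at -0.45. Of 10 genes for E2F factors, their repressors and partner cyclins, 6 were lower and 2 higher (median -0.32). The 6 lower were Tfdp2 (-1.32), an E2F dimer partner, Rbl2 (-1.01), a repressor, Rb1 (-0.93), Ccna2 (-0.65), E2f8 (-0.39) and Tfdp1 (-0.25). The 2 higher were E2f2 (0.23) and Ccne1 (0.09), while E2f3 (-0.07) and Ccne2 (0.07) were not called. The list pools factors with their repressors, so its median gives no direction of E2F activity. Base excision repair was mixed, with 6 of 11 lower (54.5%) and 4 higher (36.4%), from Neil3 at -0.96 to Parp3 at 0.64. So was end joining, with 4 of 7 lower (57.1%) and 3 higher (42.9%), where Prkdc (-0.42) and Polm (0.41) lay farthest from 0. Of 8 nucleotide excision repair genes 5 were higher and 2 lower (median 0.18); the 2 that fell, Ddb2 (-0.98) and Xpc (-0.56), encode damage sensors. Of 16 checkpoint and p53 target genes 7 were lower (43.8%, near the share of all tested genes) and 5 higher (31.2%). Among the 5 were Gadd45a (2.02) and Mdm2 (0.97), which are p53 targets, and among the 7 was Gadd45g (-0.38). Trp53 itself had a difference of -0.01 at 12 h that was not called. At 1 h, 4 of the 16 were higher (25%) and 6 lower (37.5%), beside 24.1% and 34.9% of all tested genes. Among the 4 were Trp53 (0.32, limma adjusted p = 9.85e-07), Mdm2 (1.23) and Gadd45a (1.62).

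Among annotated groups that resemble the 55 genes, 30 of 64 other genes with the Cell cycle term were lower at 12 h and 23 higher, with a median of -0.03. Of 70 other genes with a purine or pyrimidine metabolism term 27 were lower and 26 higher, with a median of 0.01. The share of lower genes, 90.9% in the 55 and 40.6% in all tested genes, was 46.9% and 38.6% in these groups. This contrast was not tested.

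**Figure D4:**
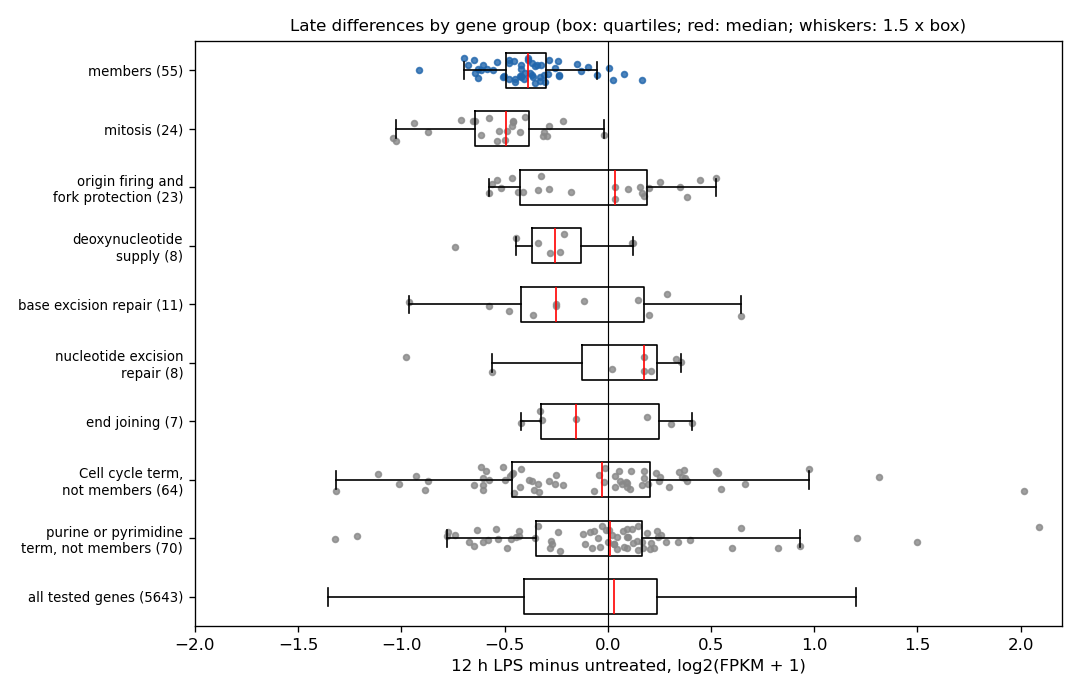
Difference in log2(FPKM + 1) between 12 h and 0 h for the 55 genes (top row), genes of related lists, related annotated groups and all tested genes; numbers of genes in parentheses, red lines are medians, boxes quartiles, and genes beyond the axis are not drawn. The 55 and the mitosis genes lie mostly below 0, with medians of -0.39 and -0.49, and the other repair lists spread to both sides.

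The mean course of the 55 genes over the 9 libraries was also matched against 4316 other named genes whose mean was 5 FPKM or more. The 10 most alike, with Pearson's r from 0.9952 to 0.9969, were Myo5a, Kif11, Mki67, Cenpf, Sorl1, Top2a, Dnmt1, Sptssa, Kif15 and Ivns1abp. Of these Kif11, Mki67, Cenpf, Top2a and Kif15 are known for mitosis or proliferation, and Dnmt1 copies DNA methylation behind the fork. With 3 groups of near-equal libraries such an r is easily reached: 649 of the 4316 genes had an r of at least 0.95.

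The level filter left out 1 gene with these terms, Rad51b, a recombination gene, whose values were 1.11, 1.04 and 0.828 FPKM at 0 h, 1.11, 1.15 and 1.06 at 1 h and 0.516, 0.487 and 0.651 at 12 h (mean 0.882). The nearest genes inside it were Fan1 (mean 1.2), Slx1b (1.65) and Fancg (1.98).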

How the data were processed

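RNA from 9 BV2 libraries was sequenced; per the labels, total RNA was taken with TRIzol and libraries made with a stranded mRNA kit. The authors deposited FPKM per gene. The submitters' processing notes list HISAT2, HTSeq, DESeq, Cufflinks and Trimmomatic, with no version or role, and GRCh38, a human build, although the genes are mouse genes; coordinates here are those of the RefSeq promoter table. The deposited p-value and q-value columns and the deposited score (rank) come from a test that the file headers do not describe, and were used only to describe how the rows had been selected.

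Log2(FPKM + 1) of the 5643 genes averaging 1 FPKM or more was fitted with limma 3.58.1 (R 4.3.3), 1 mean per group, eBayes with trend. P-values were adjusted by Benjamini-Hochberg over those genes, and called under 0.05. The genes had already been selected for a difference among these same libraries. The adjusted p-values and counts of calls therefore do not carry their usual error rate, and they describe these selected genes only. The fit was also run on simulated data with independent noise and few changed genes. That setting differs from this table of selected genes, so the run gives no error rate for the calls here. The 55 genes, role groups and lists were chosen with earlier results of these data known. Full values are given for the 2 genes per role group with the largest 12 h difference and the 1 with the largest at 1 h, and for some others picked after their values were seen; 1 gene of the 55 is counted but not otherwise reported here. Library numbers are shared across groups; residuals of same-numbered libraries correlated from -0.067 to 0.128, so they were not taken as pairs. Depth was only roughly estimated, relative to 1 library. The alternatives were pseudocounts of 0.1 and 0.5, other level filters, quantile and median-of-ratios scaling, eBayes without trend, fits of 6 libraries, the replicate block and leaving out each library.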

Additional observations from a re-analysis of the deposited data

Results flagged for a closer look

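For 5 genes the early and late responses were called in opposite directions, higher at 1 h and lower at 12 h, and the direct comparison of 12 h with 1 h was called as well (limma). The differences of 12 h from 1 h on the log2(FPKM + 1) scale were -0.58 for Mcm7, -0.53 for Fanca, -0.38 for Mcm4, -0.29 for Mcm3 and -0.21 for Pcna. Both responses are measured against the same untreated libraries. The share of all tested genes with such opposite calls was not counted. The early rise of Mcm3 kept its call in all 18 alternatives. That of the other 4 was lost in some: the 1 h difference of Mcm7 was 0.06 without untreated library 2 (adjusted p = 0.217), that of Mcm4 0.07 without 1 h library 2 (adjusted p = 0.19), that of Pcna 0.06 without untreated library 2 (adjusted p = 0.114), and that of Fanca 0.10 without 1 h library 3 (adjusted p = 0.144). Under quantile normalization the 1 h difference was 0.02 for Mcm4 (adjusted p = 0.726), 0.04 for Mcm7 (adjusted p = 0.445) and 0.05 for Pcna (adjusted p = 0.244), so these early rises depend on the scaling.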

How the results depend on the processing

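Of the 50 genes lower at 12 h than at 0 h, 47 kept that call in all 18 alternatives in which they were tested; Atrip, Fan1 and Palb2 did not. Of the 49 lower at 12 h than at 1 h, 48 did, all but Usp1. At 1 h it was 8 of 16 lower genes and 1 of 7 higher. With a mean FPKM of at least 5 fewer genes were tested, and 9 were lower at 1 h and 0 higher at 12 h than at 1 h. The count higher at 1 h was 4 without a level filter, 4 under quantile normalization and 3 without trend. The count higher at 12 h than at 0 h was 1 under quantile normalization, 1 under median-of-ratios scaling and 1 without trend; the cause was not tested. The median 12 h difference was -0.44 with a pseudocount of 0.1 and -0.42 with 0.5, which shrink low levels less.

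Leaving out 1 library at a time, the counts at 1 h ran from 12 to 24 in all, 2 to 8 higher and 9 to 17 lower. At 12 h against 0 h they ran from 48 to 52 in all, 0 to 2 higher and 48 to 50 lower, and at 12 h against 1 h from 49 to 51 in all, 1 to 3 higher and 48 to 49 lower. The medians ran from -0.04 to -0.01, -0.42 to -0.36 and -0.37 to -0.32. Quantile normalization turned the 12 h differences of Usp1 (-0.12) and Fen1 (-0.052). With the library number as a replicate block, 21, 52 and 50 genes were called in the 3 comparisons, against 23, 52 and 51 without it. The depth of the libraries is unknown, so counting error in genes near 1 FPKM cannot be separated from other spread.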
